A study of Daphnia magna with 20 samples.

Results

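A group of 85 gene models of the water flea *Daphnia magna* had its highest values in late embryos (E3) and in adult males (M). These values, signals relative to the median of each probe over the arrays, were lower in early embryos, juveniles and all 3 female stages. The 85 were chosen from 40786 gene models with at least 3 probes on the array, of which they are 0.208%. For each gene model the value of a stage was the median over its probes of the mean over the arrays of that stage, and the 7 stage values were sorted. A gene model was kept when the widest step between neighbouring values separated exactly E3 and M from the other 5 stages. It also had to have at least 2 probes well above background on at least 2 arrays of E3 and of M. The width of that step is called the gap below, and members are ranked by it from 1 (widest) to 85. All values are log2 signals relative to the median of each probe over the 20 arrays, so that a difference of 1 is a doubling of signal and 0 is the middle of the series. Since the members were chosen by these values, their high level in E3 and M is a description of the choice and was not tested.

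*D. magna* reproduces by cyclic parthenogenesis, in which a female produces daughters of her own genotype for many broods. Sons are also clonal, and sex is set by the environment of the mother, through a signal that methyl farnesoate, a crustacean juvenile hormone, can replace. Embryos develop in the mother's brood pouch and leave it with most organs formed, while adult females fill yolk-rich eggs in the ovary during each intermoult cycle, the period between moults.

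All animals were from 1 clone, named F in the study's methods and kept by parthenogenesis, so that males and females share a genotype. E1 were embryos under 12 h old and E3 were embryos 60 h old, close to release as swimming young. J were juveniles 4 days old, before an ovary is visible. F1, F2 and F3 were third-brood females of 15, 16 and 18 days at the beginning, the middle and the end of an intermoult cycle, with the embryos flushed from the brood pouch before collection. M were males 16 days old. According to the methods their mothers had been exposed to methyl farnesoate, which no other stage shares, so that this treatment and maleness cannot be told apart. The labels record no treatment, and the methods give younger ages for E1 and for M. RNA came from whole bodies, so that fewer cells of a type and less RNA per cell cannot be told apart. Each stage had 3 arrays except M with 2, and the labels do not say that arrays of a stage came from separate cultures. The p-values therefore measure the spread between these arrays.

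The 20 single-colour arrays lay on 5 slides, and the 4 arrays of slide 1 (E1 replicate 2, E3 replicate 2, F1 replicate 3 and M replicate 1) stood apart. Between 17.2% and 25.3% of their gene probes were well above background, against 47.0% to 80.7% on the other arrays. Of the random control probes, which match no gene, 0.829% to 2.49% were well above background on slide 1 and 6.83% to 52.8% on the others. Slide 1 was scanned on day 1, slide 2 on day 2 and slides 3 to 5 on day 3. The M arrays lay on slides 1 and 2 and all F2 and F3 arrays on slides 3 to 5. Stage and slide or scan day cannot be told apart there. J replicates 1 and 3 lay on slide 2, which held no female array. With M at 2 arrays, 1 of them on slide 1, the male value of every member rests on 2 arrays of unequal detection, and results that turn on slide 1 are given with and without it.

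The members were mostly bright in E3 and M, and most had probes well above background on most arrays. Their mean normalized signal over E3 and M ran from 104 to 15370 with a median of 1691, and no member probe was saturated. At least 2 probes of 82 to 85 members were well above background on every array except E1 replicate 2, where this held for 60, and F1 replicate 3, where it held for 74. On all 20 arrays at once it held for 59 members. Over all gene models tested, the share with at least 2 such probes ran from 24.1% on E1 replicate 2 to 98.59% on F1 replicate 1. With M at 2 arrays, the rule required detection on both, and M replicate 1 had it for only 24.83% of gene models tested. The brightness and detection of the members are thus shaped by the rule and are a description only. No member was without a probe well above background in any stage, although the rule asked for detection in E3 and M only. This needed only 1 probe on 1 array of the stage. Random control probes met the same mark at 32.15% on E1 replicate 1 and 52.76% on F1 replicate 1. The count therefore does not show that every member was measured above background in the low stages.

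The median over the 85 members was 1.00, 1.12 and 0.96 on the 3 E3 arrays and 0.93 and 0.87 on the 2 M arrays. On the E1 arrays it was -0.44, -0.19 and -0.21. On the J arrays it was 0.01, -0.06 and 0.06. The 3 J medians lay above those of every E1, F1 and F2 array. The F1 arrays had medians of -0.19, -0.26 and -0.32, the F2 arrays -0.17, -0.17 and -0.15, and the F3 arrays -0.07, -0.00 and -0.10. When arrays were scaled by their 75th percentile in place of quantile normalization, the member medians were 1.07 to 1.49 on E3 arrays, 0.62 and 0.74 on M arrays, and -0.51 to 0.10 on the rest. The member medians of the E3 and M arrays thus lay above the others under both scalings, and those of M lay further below E3 under the second. That scaling also moved the median of all gene models on slide 1, to 1.02 on M replicate 1 and 1.25 on E1 replicate 2, against -0.22 on M replicate 2. On M replicate 1 the members lay below the median gene model under it.

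**Figure D1:**
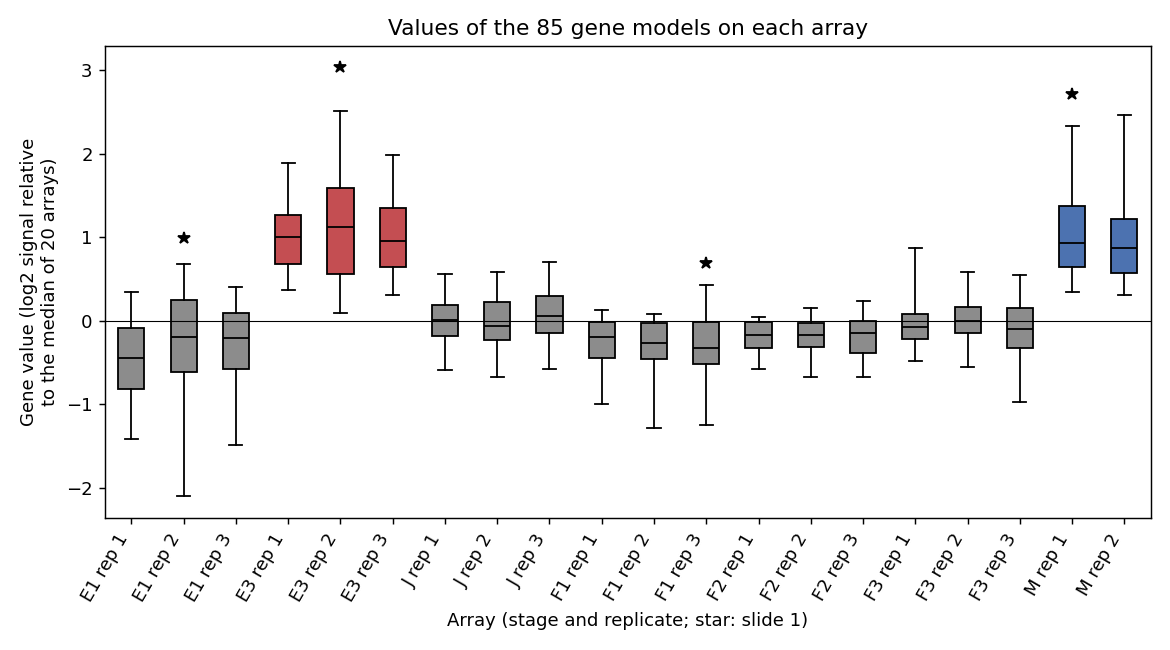
Gene values of the 85 members on each of the 20 arrays, as log2 signal relative to the median of the 20 arrays. Boxes span the quartiles with the median as a line, whiskers reach the 5th and 95th percentiles, red is E3, blue is M, grey is the other stages and stars mark slide 1; the medians are 0.87 to 1.12 in E3 and M and at most 0.06 elsewhere.

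The gap ranged from 0.10 to 2.10 with a median of 0.65, which is 1.57-fold in signal. It was at least 1 in 14 members, and under 1.5-fold in 34. The 5 arrays of E3 and M all lay above the 15 other arrays in 51 members (60%), against 1.17% of the 31172 gene models tested, a share that the rule itself raises. Of the 339 member probes, 281 had E3 and M above all other stages, and in 50 members every probe did. In 4 members only 1 probe did, and in 1 member none, although the median over its probes passed the rule. Without the centring of probes the order could differ: the member ranked 66 had mean normalized signals of 485 in J, 405 in E3 and 357.5 in M. The next stage below the gap was J in 36 members, F3 in 21, E1 in 14, F1 in 9 and F2 in 5. The lowest stage was E1 in 34 members, F1 in 23, F2 in 12, F3 in 10 and J in 6. The stages just under E3 and M were thus most often J and F3, and the bottom was most often E1 and F1.

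**Figure D2:**
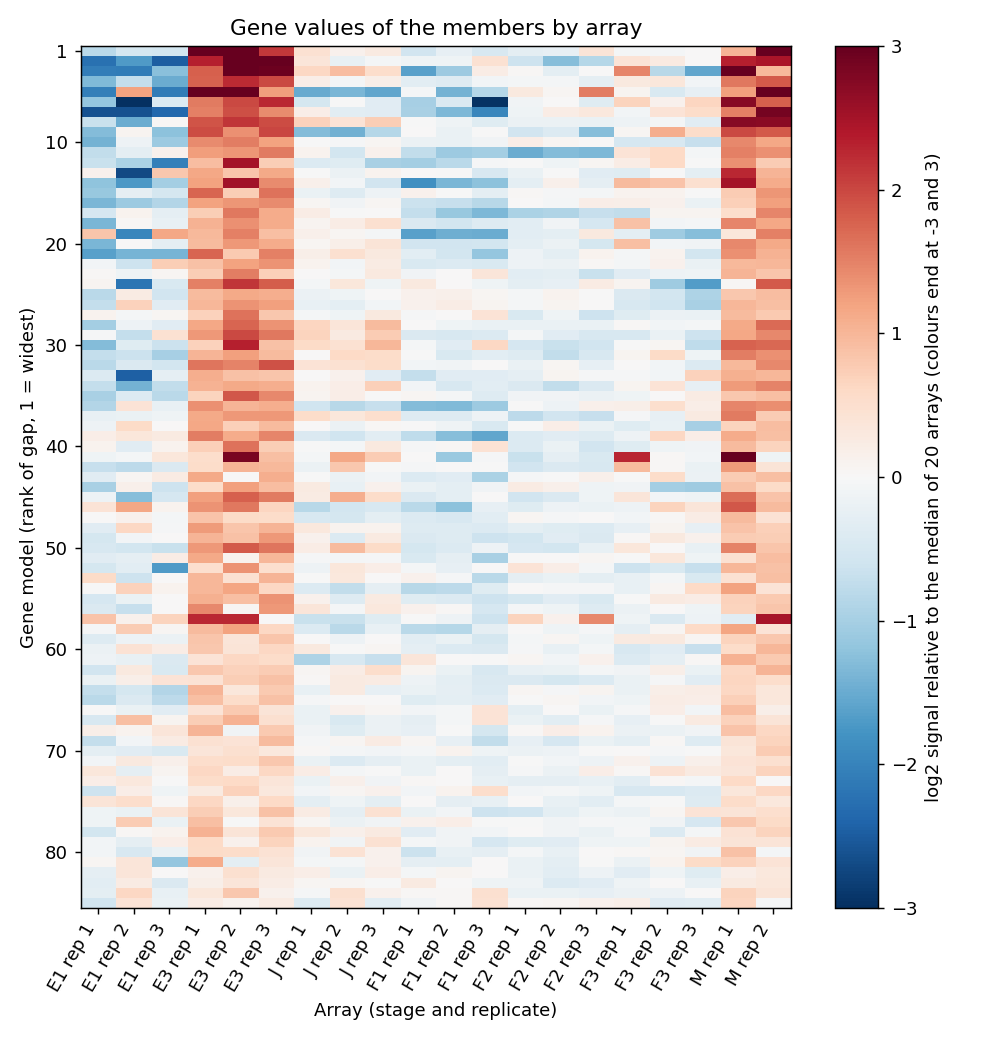
Gene values of the 85 members (rows, ranked by gap from 1 at the top) on the 20 arrays (columns), as log2 signal relative to the median of the 20 arrays. Nearly all cells of the E3 and M columns are red, with exceptions such as M replicate 1 of the member ranked 57 (-0.33) and M replicate 2 of the member ranked 41 (-0.13), and the darkest blue cells lie in E1 and F1.

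The study's gene models have no names or descriptions in the sources used here, and none matched the RefSeq gene table. No function can therefore be given for any member. The rule for naming identifiers took called differences between E3 and M, of which there were none, so the 4 printed below were chosen after their values were seen. They are the 2 with the widest gap and the members with the largest called decrease in E1 and in J. Other members are given by rank.

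The member with the widest gap was veln4ptf019k49Loc10t2, with a gap of 2.10 (4.29-fold). Its values were 3.76, 3.61 and 2.12 in E3 and 1.01 and 3.76 in M, against -0.81, -0.53 and -0.55 in E1. J gave 0.46, 0.13 and 0.27, F1 gave -0.57, -0.25 and -0.48, F2 gave -0.29, -0.24 and 0.39, and F3 gave -0.05, -0.05 and 0.00. All 5 E3 and M arrays lay above all others, but M replicate 1, on slide 1, lay well below M replicate 2. Its E3 value was 0.78 above M (SE 0.57), which was not called (limma, adjusted p = 0.369).

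The member ranked second, veln4ptr098k29Loc67t4, had a gap of 2.00 (4.01-fold) and males that lay close together. It had 2.33, 3.30 and 3.08 in E3 and 2.33 and 2.46 in M. The next values were 0.37, -0.23 and -0.06 in J, 0.42, 0.28 and 0.01 in F3, and -0.13, -0.12 and 0.46 in F1. F2 gave -0.62, -1.27 and -0.86, and E1 gave -2.23, -1.69 and -2.47. Its stages fell into 4 levels without overlap of arrays: E3 and M at the top, then J, F1 and F3 together, then F2, then E1. Its mean normalized signal was 577 in E3 and 344 in M against 13.8 in E1.

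Members with a wide gap were not all as even. The member ranked 5 had 3.09, 4.92 and 1.25 in E3 and 1.22 and 3.04 in M, but F2 replicate 3 was at 1.53 and E1 replicate 2, on slide 1, at 1.21 against -2.05 and -2.09 on the other E1 arrays. Its high and low arrays overlapped. The member ranked 41 had 3.01 and -0.13 in M, and the member ranked 57 had -0.33 and 2.48. In both of these the mean of 2 discordant male arrays put M in the high group.

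E3 and M were then compared with each other. The rule does not fix the direction of this difference, but it bounds its size, since a step between E3 and M wider than the gap would have removed the gene model. No member was called, where called means an adjusted p under 0.05 in limma (Benjamini-Hochberg over all 31172 gene models tested) and at least 1.5-fold. Over all gene models 24.1% were called, 13% higher in E3 and 11.1% higher in M. The gap was under 1.5-fold in 34 members, and for these the rule left almost no room for a call. The count of 0 and the sizes below are therefore shaped by the selection, and they are a description only. At an unadjusted p under 0.05 in limma there were 2 members. The share of all gene models at that threshold was not counted, so nothing is read from the 2. The methods' t-test called 0 members, both at its unadjusted threshold and after Benjamini-Hochberg. Over all gene models that test called only 1.25% at the first of these settings and 0.0545% at the second. Its count of 0 members therefore does not set them apart from other gene models. The E3 minus M difference of the members ran from -0.73 to 0.96 with a median of 0.09, against 0.07 over all gene models. E3 was the higher stage in 51 members and M in 34, and 80 differed by less than 1.5-fold. The largest difference towards M was in the member ranked 8, at 1.89, 2.15 and 1.95 in E3 and 2.74 and 2.71 in M. Its E3 and M arrays did not overlap, yet the difference of -0.73 (SE 0.31) was not called (limma, adjusted p = 0.102).

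The spread between arrays was as large as most of these differences. In 61 members the 2 male arrays differed by more than E3 and M did. The absolute difference between the males had a median of 0.29 and reached 3.14, and the SD over the 3 E3 arrays had a median of 0.28 and reached 1.83. Over all gene models tested the corresponding medians were 0.60 and 0.40. M replicate 1, on slide 1, was the higher male in 49 members. On slide 1 itself, which holds E3 replicate 2 and M replicate 1, the E3 minus M difference had a member median of 0.01, with 45 members higher in E3 and 40 lower, and that of all gene models was -0.03. Under the 75th percentile scaling the same 2 arrays gave a member median of 0.49, with 69 higher and 16 lower, and -0.61 over all gene models. Over all arrays that scaling gave a member median of 0.49, where that of all gene models was -0.39. It called 5 members (5.88%), each higher in E3, and 17.8% of all gene models. Without slide 1 there were 2 members called (2.35%), both higher in M, and 30.8% of all gene models, with M then at 1 array whose spread is taken from the other stages.

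The rule does not fix the order of the 5 low stages, but it bounds each step between neighbouring low stages below the member's gap. The shares of members called among low stages are therefore shaped by the selection, and they are set beside those of all gene models as a description only. Juveniles were compared with the mean of the 3 female stages. Of the 85 members, 11 (12.9%) were called higher in J and 2 (2.35%) lower. Over all gene models tested 10.5% were higher and 10.8% lower. The member median was 0.22, against 0.00 over all gene models.

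The largest called increase was in the member ranked 29, with 0.66, 0.26 and 0.77 in J, 1.93-fold above the females (0.95, SE 0.22, limma adjusted p = 0.00481). Its female arrays ran from -0.62 to -0.05, so that all J arrays lay above them and below its lowest M array at 1.17. The member ranked 50 was higher by 0.83 (SE 0.20, limma adjusted p = 0.00601), and the member ranked 37 by 0.80 (SE 0.17, limma adjusted p = 0.0024). The other 8 rose by 0.59 to 0.92.

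The member velb9ptr073k67Loc7t2, ranked 9, went the other way. It had -1.31, -1.45 and -0.86 in J, against 0.02, -0.19 and -0.01 in F1, -0.58, -0.40 and -1.27 in F2, and 0.06, 1.08 and 0.54 in F3. It fell by 1.12 in J relative to the females (SE 0.29, limma adjusted p = 0.0105), and among the female stages the J arrays overlapped those of F2. In E1 it had -1.31, 0.09 and -1.23, so that E1 replicates 1 and 3 lay within the range of J. In E3 it had 1.96, 1.37 and 2.01 and in M 1.98 and 1.84, with no array near those of J. The other member called lower, ranked 61, fell by 0.67 with -0.92, -0.47 and -0.69 in J.

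The juvenile calls were fewer with slide as a term in the fit, at 3 (3.53%), all higher, and 14.8% of all gene models were then called. Slide 3 is the only one that holds both kinds of animal, with J replicate 2, F1 replicate 2 and F2 replicate 2, and within it the member median was 0.22, with 59 members higher in J and 26 lower. Leaving out J replicate 1, 2 or 3 left 8, 7 and 5 calls, while 15.1%, 15.2% and 13.3% of all gene models were called. Leaving out slide 1 gave 14 calls (16.5%), and 32% over all gene models.

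Early embryos were compared with the same mean of the females. Over all gene models this was the widest contrast, with 27.2% called higher in E1 and 24% lower, 51.1% in all. Of the members 2 (2.35%) were called higher and 16 (18.8%) lower, 21.2% in all. The member median was -0.10, against 0.09 over all gene models. The rule limits both sides, since it keeps E1 under the gap and also removes a gene model in which E1 lay further below the next stage than the width of the gap, so nothing is read from these shares. Leaving out E1 replicate 1 turned the sign of the member median, to 0.04, against 0.05 over all gene models.

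The largest decrease was in velb9ptf110k27Loc6t10, ranked 7. It had -2.62, -2.62 and -2.36 in E1, and fell by 2.20 relative to the females, which is 4.60-fold (SE 0.27, limma adjusted p = 2.44e-06). Its J values were 0.20, -0.32 and -0.34, its E3 values ran from 1.41 to 1.93, and its M values were 1.51 and 2.87. No E1 array overlapped any other, and its mean normalized signal was 31.2 in E1 and 727 in E3. Under other processing and with arrays left out the difference ran from -2.418 to -1.135. The fold at this low E1 signal thus depends on the processing. Its gap exceeded the next widest step between its stages by 0.03.

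The member ranked second fell by 1.93 in E1 (SE 0.23, limma adjusted p = 2.66e-06), with the values given above. Its E1 signal was also low, and under other processing and with arrays left out this difference ran from -2.145 to -0.643. The member ranked 21 fell by 1.16, with -1.64, -1.40 and -1.39 in E1, and it was also called higher in J, by 0.64. The member ranked 4 fell by 1.11, with -1.33, -0.71 and -1.48 in E1 and values from -0.39 to 0.34 in the females. These 3 had E1 arrays below all arrays of the other stages. The other 12 fell by 0.59 to 1.09.

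The 2 members higher in E1 were ranked 46 and 39. The member ranked 46 had 0.40, 1.17 and 0.11 in E1, with the highest on slide 1, and was 0.80 above the females (SE 0.28, limma adjusted p = 0.0242). The member ranked 39 had 0.21, 0.35 and 0.27 and was 0.73 above them (SE 0.19, limma adjusted p = 0.00319). In both, E1 was the stage next to the gap.

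**Figure D3:**
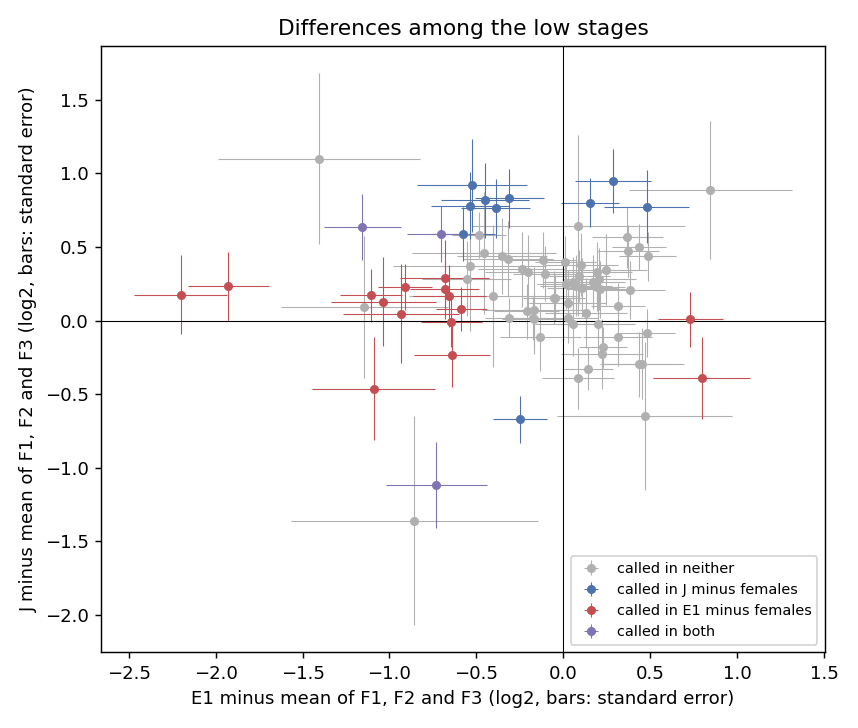
Difference from the mean of F1, F2 and F3 in E1 (horizontal axis) and in J (vertical axis) for each of the 85 members, in log2 units with bars of 1 standard error. Points called in E1 (red) lie mostly at the left, 16 of 18 below 0 when the members called in both (purple) are included, and points called in J (blue) lie mostly above 0, with 2 of all 13 below it.

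Within slide 4, which holds E1 replicate 1 and 3 females, the E1 minus female difference had a member median of -0.25, with 56 members lower and 29 higher, and a median of 0.10 over all gene models. Within slide 1, with E1 replicate 2 and F1 replicate 3, the member median was 0.01, with 41 lower and 44 higher, and that of all gene models 0.16. Under the 75th percentile scaling the member median was -0.31 within slide 4, against 0.46 over all gene models, and 0.24 within slide 1, with 54 higher and 31 lower, against 1.07. Leaving out the 4 arrays of slide 1 gave 22 calls (25.9%), 4 higher and 18 lower, and 60.7% of all gene models were then called, 33.7% higher and 26.9% lower. The 75th percentile scaling moved the median of all gene models from 0.09 to 0.71 and that of the members from -0.10 to -0.04, with 2 called higher and 11 lower. Without E1 replicate 1 the member median was close to that of all gene models, as given above. The lower member median in E1 thus depended on that array. Single calls moved less, with 5 members (5.88%) then called higher and 13 (15.3%) lower. Over all gene models 24.7% were then called higher and 22.5% lower.

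The female stages were compared over the intermoult cycle with a moderated F test. Of the members 7 (8.24%) were called, and 13.1% of all gene models tested, whose female stages the rule did not bound. In 6 of the 7 the highest female stage was F3, and in 5 the lowest was F1. Among all 4079 gene models called, 27.5% were highest in F3 and 40.1% lowest in F1. The 7 are few, and these directions describe them only.

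The widest of these differences was in the member ranked 14, at -1.83, -1.38 and -1.24 in F1, -0.30, 0.15 and -0.27 in F2, and 0.95, 0.86 and 0.47 in F3. The 3 stages did not overlap, and F3 was 4.73-fold above F1 (2.24, limma adjusted p = 0.00121 for the F test). Its mean normalized signals were low, at 26.3 in F1 and 78.1 in F3. Only 2 of its 4 probes had E3 and M above all other stages. Under other processing and with arrays left out the female difference ran from 1.305 to 2.655. Its F3 arrays still lay below those of E3 at 1.21, 2.51 and 1.41 and of M at 2.49 and 1.12.

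The same order was found in the member ranked 39, with means of -1.20 ± 0.40 in F1, -0.38 ± 0.04 in F2 and 0.22 ± 0.39 in F3 (SD, n = 3), and a difference of 1.41 between the ends (limma adjusted p = 9.74e-04). The member ranked 36 had -1.23 ± 0.12, -0.01 ± 0.16 and 0.30 ± 0.18 (SD, n = 3; limma adjusted p = 7.16e-04). In velb9ptf110k27Loc6t10 the means were -1.42 ± 0.50 in F1, 0.14 ± 0.23 in F2 and 0.29 ± 0.33 in F3 (SD, n = 3; limma adjusted p = 0.00183). In these 3 members F1 lay below F2 and F3 on every array.

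The members ranked 2 and 11 were lowest in F2 and highest in F3. The member ranked 11 had -1.50, -1.29 and -1.35 in F2 and 0.42, 0.59 and -0.07 in F3, a difference of 1.69 (limma adjusted p = 3.17e-04), and F1 lay between at -0.73, -1.08 and -1.02. The member ranked 16 was the one not highest in F3: its F2 arrays, at 0.01, -0.06 and 0.19, overlapped those of F3 at 0.18, 0.13 and -0.21, and both lay above F1. Leaving out the 4 arrays of slide 1 raised the female count from 7 to 19 (22.4%), and leaving out E1 replicate 2 alone raised it to 13 (15.3%). The share over all gene models rose as well, to 27.8% and 17.1%. E1 replicate 2 enters this comparison only through the estimate of the spread.

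Membership itself moved with the arrays and the scaling. The widest step had to be wider than the next by any amount, and this margin had a median of 0.16 and was under 0.1 in 24 members. The narrowest margins inside were 4e-04, 0.0079 and 0.0111, in the members ranked 39, 57 and 85, and the gene models nearest outside, with E3 and M above all other stages but another step wider, missed by 0.0047, 0.0050 and 0.0051. A further 409 gene models had the pattern but not the detection in E3 and M. Another 779 had detection and the same order of stages, with E3 and M on top, but a wider step elsewhere.

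The same rule passed 86 gene models, all 85 members among them, on the quantile-normalized scanner values in place of the deposited matrix. With the 75th percentile scaling it passed 63, among them 33 members, and 38 of the rest were then high in E3 alone. With normexp background correction 58 members remained, and with the mean over probes 62.

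Leaving out any single array kept between 59 and 84 members. The fewest were kept without a male array, 60 without M replicate 1 and 59 without M replicate 2, and 290 gene models passed in all without M replicate 1. Without slide 1, 333 passed, and 54 members were among them. Since M then has 1 array, detection was asked of that array alone. A set of 27 members was kept whichever single array was left out, and 12 of these were also kept under the 75th percentile scaling, normexp and the mean over probes. The members ranked 2, 4, 8, 9 and 11 were among the 12. The member with the widest gap was kept in 19 of the 20 omissions and that ranked 7 in 12.

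**Figure D4:**
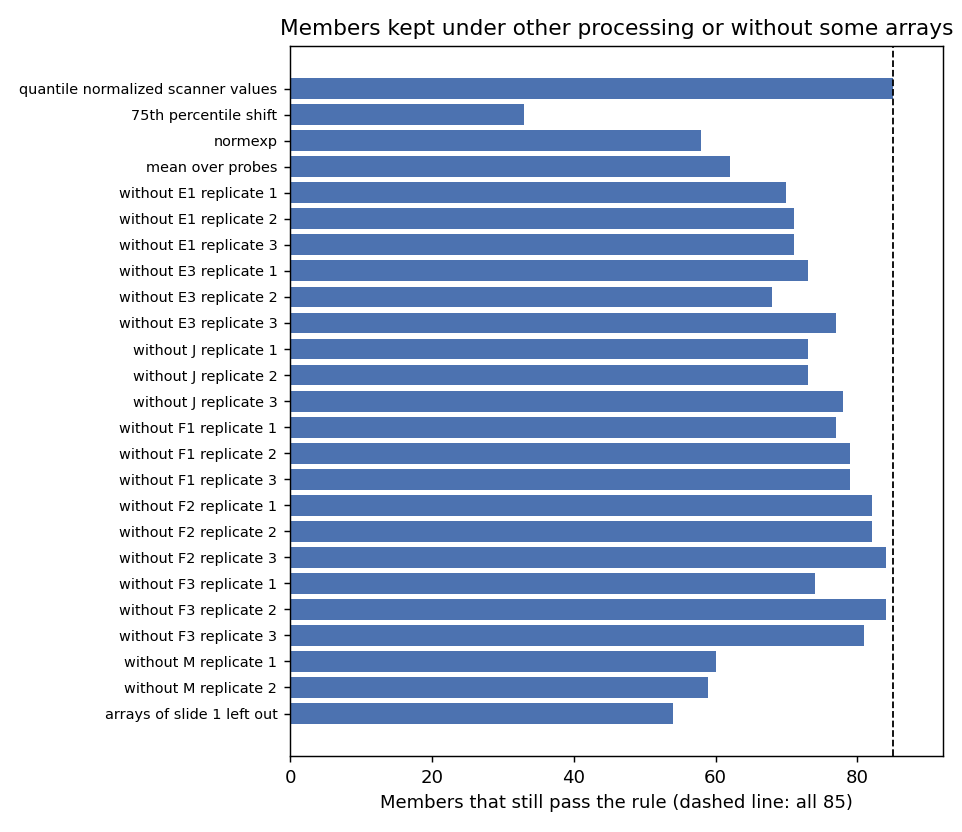
Number of the 85 members that still passed the rule when the processing was changed or arrays were left out (bars, horizontal axis), with the full 85 as a dashed line. The 75th percentile shift kept the fewest, 33, followed by the 54 kept without the arrays of slide 1, the 58 kept with normexp and the 59 and 60 kept without a male array.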

How the data were processed

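For every array the deposited scanner table gives spot intensity (linear), read with Feature Extraction 10.5.1.1 per the file headers. Its processed signal, used here, had been corrected for background. They also deposited a matrix of log2 values, which had been quantile normalized and set relative to the median of all samples. The lowest correlation of an array's recomputed values with it was 0.999. Members were chosen on this matrix. Up to 150 members were allowed, and the limit was not reached. Members and lists were chosen with earlier results of these data known.

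For tests, spots marked as outliers and control spots were left out, log2 signals were averaged by probe, quantile normalized and centred, and a gene value was the median over its probes. Gene models with 2 or more probes well above background on 2 or more arrays of at least 1 stage were tested, 31172 in all, in 1 limma fit (lmFit and eBayes) of the 20 arrays with 7 groups. Males have 2 arrays, and their spread was taken from all stages. The number of arrays limits the precision. Every member passed this filter through E3 and M, as the rule requires. A difference was called at an adjusted p under 0.05 (Benjamini-Hochberg) and at least 1.5-fold. The named gene models were to be those with the largest called differences between E3 and M, at most 2 in each direction; there were none, and the 10 widest gaps, the largest called female differences and the borders of the list were described by rank where they carried a result. Slides were taken from the file headers. GO, KEGG and sequences were not analysed here.

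Alternatives were a 75th percentile shift, normexp with an offset of 50 on the median signals, the deposited matrix, outlier spots kept, no filter, the mean over probes, no fold threshold, slide or replicate number as a block, the methods' t-test (unadjusted p under 0.001, or Benjamini-Hochberg), and each array left out in turn. Leaving out slide 1 was chosen after seeing the data. The fit was tested on simulated data. The software was R 4.3.3, limma 3.58.1, data.table (version 1.17.8), Python 3.11.15, pandas 2.3.3, numpy 2.4.6 and matplotlib 3.10.9.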

Additional observations from a re-analysis of the deposited data

How the results depend on the processing

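The count of members called between E3 and M was 0, and it was 5 under the 75th percentile shift, 1 with normexp, 2 without slide 1 and 0 to 1 with each array left out. The 13 juvenile calls became 6 with normexp, 3 with the slide block, 3 with the unadjusted t-test, 8 with its Benjamini-Hochberg values and 5 to 14 with each array left out. The share of all gene models called fell too, from 21.3% to 14.9%, 14.8%, 10.3% and 20.2% in the first 4 of these. The 18 calls in E1 became 5 with the unadjusted t-test, 11 after Benjamini-Hochberg and 14 to 19 with each array left out. The 7 female calls became 4 under the 75th percentile shift, 11 with normexp, 19 without slide 1 and 6 to 13 with each array left out; the t-test was not run for them. The rule passed 333 gene models without slide 1 and 75 to 290 with each array left out, and kept 33 members under the 75th percentile shift, 54 without slide 1 and 59 to 84 with each array left out. The member ranked 35 had -0.65 in E1 relative to the females and 0.0352 under the 75th percentile shift, which moved the median of all gene models from 0.09 to 0.71. The share of all gene models called in E1 went from 51.1% to 27.3% with the unadjusted t-test and 44.3% after Benjamini-Hochberg. Among females it went from 13.1% to 9.36% under the 75th percentile shift and 12.5% with normexp. Between E3 and M it went from 24.1% to 17.8% and 19.1% under the same settings. The cause of all these changes was not tested. With each array left out, the share of all gene models called ran from 13.3% to 25.1% in J and from 47.2% to 53.4% in E1. Among females it ran from 9.87% to 17.1%, and between E3 and M from 19.3% to 28.5% with both M arrays kept. With the replicate number as a block the counts were 0, 10, 17 and 7. The shares of all gene models were then 22.6%, 20.6%, 50.4% and 12.1%, in the same order. The numbers showed no sign of pairing the arrays, which does not exclude a pairing. Deviations of arrays with the same number correlated at -0.0266 on average, and 8 of 57 such pairs were over 0.1. Only 2 of 20 arrays correlated best with their own number. Arrays of different stages correlated at 0.0899 on average within a slide and at -0.0154 between slides. Of the values of called members under these alternatives, 494 kept their call in E1 and 81 lost it, 324 and 92 did so in J, and 201 and 9 among females.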

Other observations

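Gene models on the array are named by a stem and a final number, and the 85 members have 84 stems. Different stems need not mean separate genes, and the paper states that its gene models include splicing forms. The members ranked 49 and 55 had 1.01, 0.89 and 1.31 and 1.07, 0.90 and 1.35 in E3. Those ranked 54 and 58 had 1.00, 1.18 and 0.62 and 0.96, 1.21 and 0.62. Close E3 values were also found in the members ranked 18 and 20, which share a stem, and in those ranked 23, 27 and 40. The pairs ranked 25 and 26, 31 and 34, 43 and 51, and 45 and 50 were close as well. Those ranked 31, 34, 45 and 50 were each called higher in J. Those ranked 18, 20, 31 and 34 were among the 12 kept in all omissions and the other processing. Counts of members may therefore include some genes more than once, which was not tested. A further 15 gene models tested share a stem with a member, over 11 stems, and they were looked at after the members were known. When the mean of E3 and M was set against the mean of the other 5 stages, 5 of the 15 (33.3%) were called higher and 1 lower, against 16.3% of all gene models tested called higher. Their median difference was 0.05, against -0.08 over all gene models. The members were chosen for high values in E3 and M, and the 15 share their stems. These shares are therefore a description only. The 5 were not spread evenly: 2 share the stem of the member ranked 35, at 3.43 and 2.35, 2 that of the member ranked 34, at 1.79 and 1.20, and 1 that of the member ranked 36, at 1.13. The stem of the called decrease, at -1.57, is that of the member ranked 50.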
